A study of Mus musculus with 17 samples.

Results

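Serum microRNAs (miRNAs) were compared between 7 AT-ATX transgenic mice with spontaneous tumors and 7 AT-ATX mice without tumors, which make up 14 of the 17 mice profiled. The groups were taken from the labels alone, and the other 3 mice were healthy wild-type FVB/N animals. Both transgenic groups carry an Autotaxin transgene, so the comparison holds the transgene constant and asks which circulating miRNAs differ with tumors. The labels used here do not give the promoter of the transgene, the tumors' site or load, or the age of the animals. A question mark stands in the animal number of tumor replicate 5, which was analysed as a tumor mouse. Whether tumor-free replicate 4 and tumor replicate 4 come from different animals is not stated. Each sample was counted as a separate mouse, and the tests treat the samples as independent.

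Autotaxin is a secreted enzyme that makes lysophosphatidic acid, a lipid that signals through receptors on the cell surface. miRNAs are short RNAs cut from a hairpin precursor, which yields a 5p and a 3p strand (arm). One arm is usually loaded into the silencing complex and the other is mostly degraded. Bases 2 to 8 of a mature miRNA, the seed, pair with target messenger RNAs. Cells release miRNAs in vesicles, in protein complexes and when they die, so serum holds miRNAs of blood cells, liver and other organs. A serum level therefore cannot tell fewer source cells from less RNA released per cell.

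The mature sequences below are those on which the comparison turns, with the seed in capitals, written 5′ to 3′ from RefSeq (build GRCm38.p6). Of 317 mouse assays on the panel, 260 matched a RefSeq mature sequence by name. The first 4 are the mouse miRNAs that passed the test between the groups.
miR-802-5p: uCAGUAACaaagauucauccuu
miR-192-3p: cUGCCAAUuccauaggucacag
miR-455-3p: gCAGUCCAcgggcauauacac
miR-339-3p: uGAGCGCCucggcgacagagccg

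Each of these 4 seeds belongs to 0 other mature mouse miRNAs in the RefSeq table and to 0 others of the 260 mouse assays that have a sequence there. The 57 mouse assays without one and the rat-named assays, miR-802-5p among them, could not be compared. miR-802-5p lies at chr16:93369737-93369758 on the plus strand, and miR-192-3p at chr19:6264900-6264921 on the plus strand. Neither lies within the span of another RefSeq gene. miR-455-3p lies at chr4:63256904-63256924 on the plus strand, within the span of the collagen gene Col27a1. miR-339-3p lies at chr5:139369673-139369695 on the minus strand, within the span of the protein-coding gene 3110082I17Rik. The gene table gives spans only, so exon and intron were not analysed here.

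The next 3 are passenger arms of the mir-30 family, shown because miR-30a-3p and miR-30e-3p share a seed while miR-30c-2-3p does not. The last pair shares a seed between a miRNA of the X-linked mir-322 cluster and the red blood cell miRNA miR-16-5p.
miR-30a-3p: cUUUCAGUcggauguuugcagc
miR-30e-3p: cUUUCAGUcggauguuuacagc
miR-30c-2-3p: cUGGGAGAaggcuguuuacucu
miR-322-5p: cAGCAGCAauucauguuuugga
miR-16-5p: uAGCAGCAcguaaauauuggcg

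Levels were measured by real-time PCR, in which a lower quantification cycle (Ct) means more template. The level of a miRNA is its own Ct subtracted from the mean Ct of the 252 miRNA assays that every mouse had detected. It is a log2 value relative to the panel, not an amount per volume of serum. Each mouse had 312 to 356 of 357 miRNA assays detected. Between tumor and tumor-free mice, the number of assays detected (a difference of -9.14), the mean Ct of the shared assays (29.8 against 29.4) and the hemolysis index (3.97 against 4.38 cycles) gave exact two-sided permutation p-values of 0.224, 0.522 and 0.614, all 0.614 after adjustment. The hemolysis index subtracts the Ct of miR-451a, a red blood cell miRNA, from that of miR-23a-3p. The most abundant miRNAs included miR-451a at 10.18 ± 1.33 (SD, n = 7) in tumor mice and 10.11 ± 0.70 (n = 7) in tumor-free mice, and miR-16-5p at 9.60 ± 1.08 and 9.18 ± 0.65.

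Of 338 assays tested in limma, 5 passed at a Benjamini-Hochberg adjusted p under 0.05, which is 1.48% of those tested. They were 4 that fell in tumor mice (miR-802-5p, its rat-named assay, miR-192-3p and miR-455-3p) and 1 that rose (miR-339-3p). At an unadjusted p under 0.05, 30 assays were lower (8.88%) and 27 were higher (7.99%) in tumor mice. The median difference over all 338 assays was 0.14, with 188 assays above 0. The groups did not overlap in 3 assays that were lower (0.888%) and in 1 that was higher (0.296%).

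miR-802-5p, abundant in liver and pancreas, ranged from -2.32 to -0.68 in tumor mice, with a median of -1.15. In tumor-free mice it ranged from 0.03 to 1.68, with a median of 0.79. Every tumor mouse lay below every tumor-free mouse. The 3 wild-type mice, at 1.52, 0.47 and 0.87, lay within the tumor-free range. The difference was -1.99 (SE 0.37, 95% interval -2.77 to -1.22, adjusted p = 0.0105), a 3.98-fold lower relative level.

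The rat-named miR-802-5p assay sits on the other set of assays and read 4.13 cycles later than the mouse assay. It ranged from -6.83 to -4.67 in the 6 tumor mice where it was detected, and from -4.40 to -2.54 in the 7 tumor-free mice. The difference was -2.15 (SE 0.47, adjusted p = 0.02). Both assays target a near-identical RNA, so they are repeat readings and not independent results. Over 19 miRNAs with both a mouse-named and a rat-named assay tested, 14 pairs lay on the same side of 0, and the median gap between their differences was 0.15.

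miR-192-3p is the less abundant product of the miR-192 precursor, which liver and intestine express. It ranged from -3.68 to -1.23 in tumor mice (median -2.62) and from -1.41 to -0.22 in tumor-free mice (median -0.76). Tumor replicate 4 lay inside the tumor-free range and the other 6 tumor mice below it. The wild-type mice were at 0.05, -0.90 and 0.26. The difference was -1.86 (SE 0.37, adjusted p = 0.0128).

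miR-455-3p, which is encoded within the collagen gene Col27a1, had the largest difference of the assays that passed. It ranged from -5.40 to -1.24 in tumor mice (median -3.36) and from -1.78 to 0.81 in tumor-free mice (median -0.67). Tumor replicate 7, at -1.24, was the only tumor mouse inside the tumor-free range. The wild-type mice were at 0.75, -0.77 and 0.59. The difference was -2.67 (SE 0.58, adjusted p = 0.02), a 6.37-fold lower relative level.

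miR-339-3p was the only assay that passed upward. It ranged from -2.75 to -1.99 in tumor mice (median -2.44) and from -3.91 to -3.09 in tumor-free mice (median -3.61). The groups did not overlap, and the spread within each was narrow, with an SD of 0.26 and 0.34. The wild-type mice, at -2.44, -3.07 and -2.80, all lay above the tumor-free range, the second only just. The first lay inside the tumor range and the others below it. The difference was 1.15 (SE 0.28, adjusted p = 0.0428), a 2.22-fold higher relative level.

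**Figure D1:**
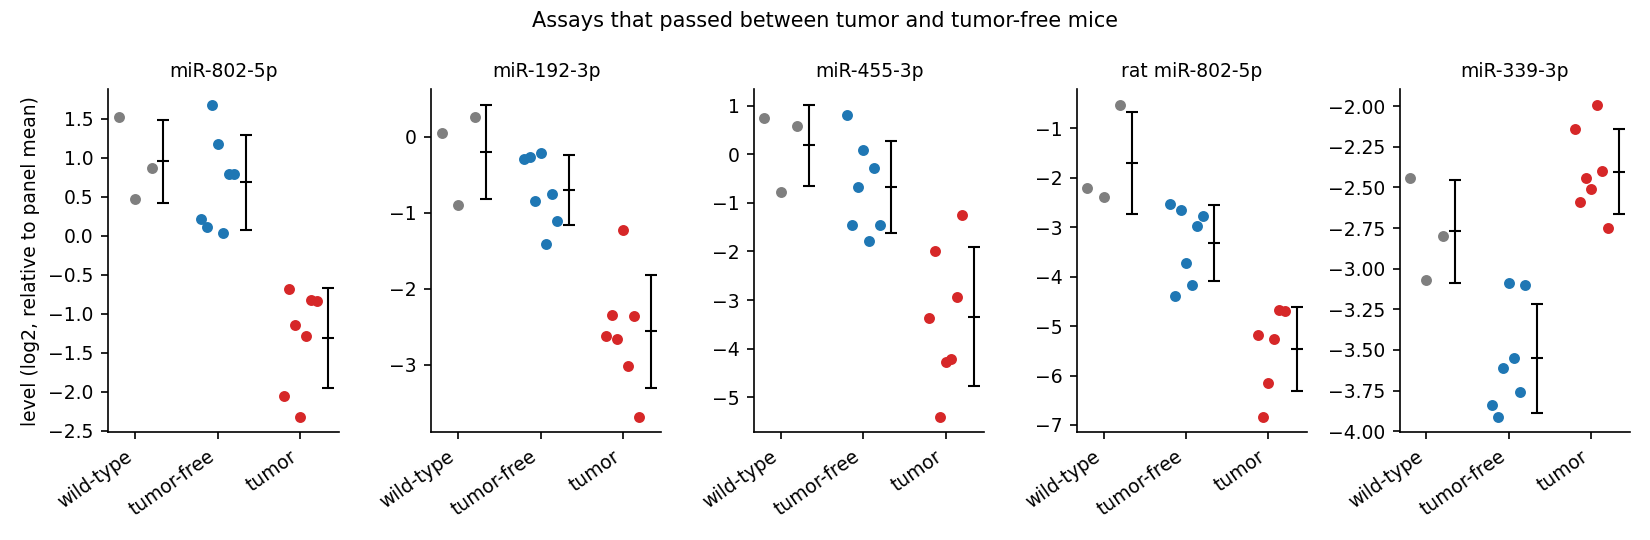
Level of each assay that passed between tumor and tumor-free mice (log2, relative to the panel mean), 1 point per mouse, in wild-type (n = 3), tumor-free (n = 7) and tumor mice (n = 7; 6 for the rat-named assay). Bars show the mean and SD, and each panel has its own axis. Tumor mice lie lower in the first 4 panels and higher in the last, and miR-802-5p and miR-339-3p show no overlap between the transgenic groups.

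In limma, scaling by spike-ins, using raw Ct and scaling by reference miRNAs each left 0 calls (14, 17 and 46 assays had an unadjusted p under 0.05), although all 5 differences kept their sign. Over the 7 scalings run, the difference was between -2.35 and -1.87 for miR-802-5p, -2.22 and -1.70 for miR-192-3p, -3.03 and -2.52 for miR-455-3p, -2.57 and -1.93 for the rat-named assay, and 0.79 and 1.27 for miR-339-3p. The per-assay exact permutation test gave 0 calls (57 unadjusted, smallest adjusted p 0.0591). A lone assay at its smallest possible p, 0.000583, would have an adjusted p of 0.197, so this test can make a call only when several assays lie near that limit. The last decimals of the values divide the samples into 13 with 2 kinds of ending and 4 with 1 kind (tumor-free replicates 4, 5 and 7 and tumor replicate 1). Without those 4, 0 assays passed in limma (30 unadjusted, smallest adjusted p 0.0674), with differences of -1.88 for miR-802-5p, -2.01 for miR-192-3p, -2.95 for miR-455-3p and 1.33 for miR-339-3p. Within the 4 alone, the differences were -2.72, -1.71, -2.32 and 1.11. With the kind of ending as a term in limma on all 17 mice, the same 5 assays passed (smallest adjusted p 0.0171).

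With 1 of the 17 mice left out at a time, both miR-802-5p (mouse assay) and miR-192-3p passed in all 17 fits (adjusted p at most 0.0405 and 0.0418). miR-455-3p passed in 13, and its adjusted p reached 0.062 in the 4 fits that lost its call, those leaving out tumor replicates 3 and 4 and tumor-free replicates 1 and 6. The rat-named miR-802-5p passed in 12, and was lost without those same mice or tumor-free replicate 3 (up to 0.0727). miR-339-3p passed in 6, and was lost without wild-type replicate 3, tumor replicate 1, 2, 3, 4 or 6, or tumor-free replicate 1, 2, 3, 5 or 6 (up to 0.111). Its difference stayed between 1.08 and 1.23 throughout.

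**Figure D2:**
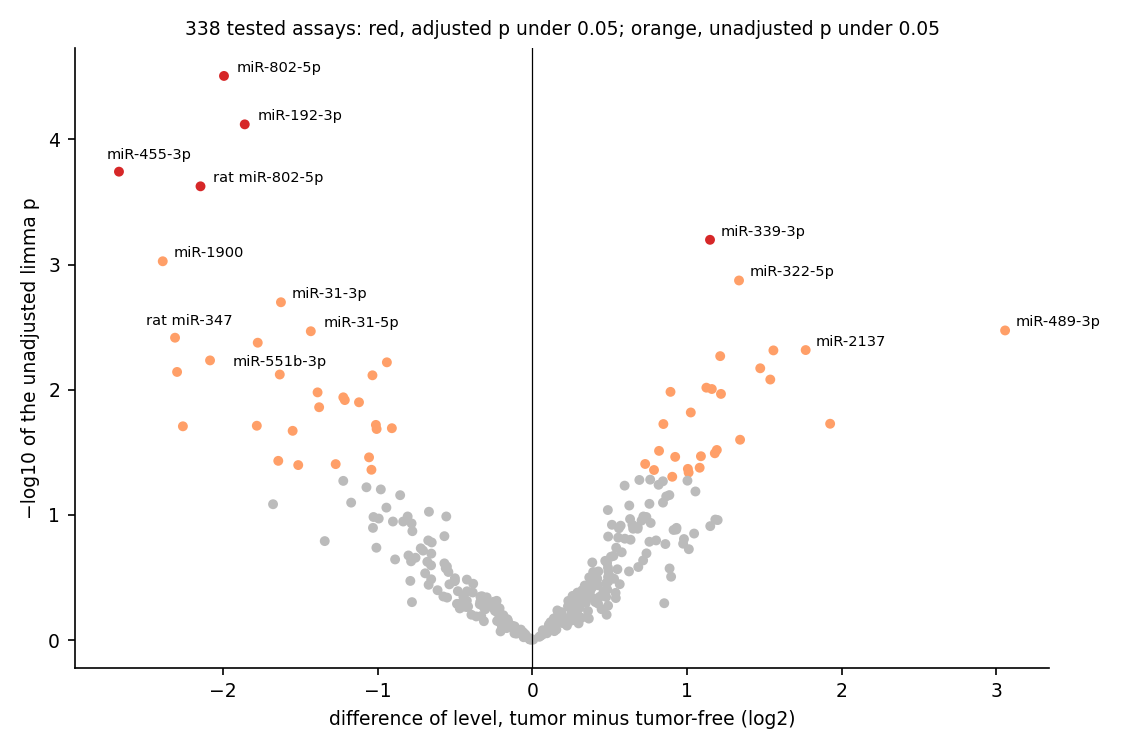
Difference of level between tumor and tumor-free mice (log2, horizontal) against the negative log10 of the unadjusted limma p (vertical) for 338 tested assays, with the 13 of smallest p named. Red points mark the 5 assays that passed after adjustment and orange points the others at an unadjusted p under 0.05. miR-489-3p lies farthest to the right, at 3.06, without passing.

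Several assays with large differences did not pass. miR-489-3p, encoded within the calcitonin receptor gene Calcr, ranged from -6.47 to 2.38 in tumor mice and from -7.34 to -5.15 in tumor-free mice. Tumor replicate 6 was highest, 5 of 7 tumor mice lay above all tumor-free mice, and the difference was 3.06 (SE 0.92, adjusted p = 0.115). miR-1900, encoded within the span of Icam5, ranged from -1.03 to 3.21 in tumor mice and from 1.89 to 3.99 in tumor-free mice. Its difference was -2.39 (SE 0.61, adjusted p = 0.053), and 6 tumor mice lay below the whole tumor-free range. The wild-type mice, at -1.43, -2.85 and -4.26, lay below every transgenic mouse. miR-551b-3p was detected in 5 tumor mice, all below the tumor-free mice (-5.98 to -4.12 against -3.80 to -2.13), with a difference of -1.78 (SE 0.54, adjusted p = 0.117).

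Other assays among the 30 of smallest p did not pass either. The neuronal miR-132-3p differed by 1.22 (adjusted p = 0.12), miR-2137, encoded within the span of Zfp185, by 1.77 (0.117) and miR-1983 by 1.47 (0.123). The rat-named miR-347 assay differed by -2.31 (0.117), the widely expressed miR-26a-5p by -1.22 (0.138) and the lymphocyte miR-181a-5p by -1.21 (0.141). Of these, miR-2137 had the most tumor mice outside the tumor-free range, with 6 of 7 above it.

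Liver miRNAs were the list with the most members that passed. Of 16 tested, 2 fell (miR-802-5p and miR-192-3p), 7 were lower at an unadjusted p under 0.05 (8.88% over all assays), and 0 were higher. The median difference was -0.79, against 0.14 over all assays, and 14 of 16 lay below 0, against 150 of 338. Both arms of miR-192 and both of miR-33 are among the 7, so these are not 7 separate results. The lists were chosen with earlier results of these data known. miR-122-5p, the most abundant miRNA of hepatocytes, ranged from 4.44 to 8.48 in tumor mice (median 6.75) and from 7.11 to 8.71 in tumor-free mice (median 8.25). Tumor replicate 5 was the single tumor mouse within the tumor-free range, and the difference was -1.63 (SE 0.55, adjusted p = 0.123).

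miR-192-5p, the main arm of its hairpin, differed by -0.94 (SE 0.31, adjusted p = 0.12), and 6 tumor mice lay below the tumor-free range. miR-194-5p is encoded near miR-192 on chromosome 19 and also on chromosome 1, with the same mature sequence, so its source gene cannot be told. The difference of miR-194-5p was -1.39 (SE 0.49, adjusted p = 0.135). The arms of miR-33, encoded within the sterol regulator gene Srebf2, differed by -1.27 (5p, adjusted p = 0.265) and -1.06 (3p, adjusted p = 0.25), the former by -0.84 without the samples of 1 decimal ending. miR-148a-3p differed by -0.67 and miR-101a-3p by 0.07. The difference was thus not of 1 size across liver miRNAs, and the highest, of miR-193b-3p, was 0.76.

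Epithelial miRNAs gave a similar count without a call. Of 15 tested, 14 lay below 0 (150 of 338 over all assays) with a median of -0.81, 5 were lower at an unadjusted p under 0.05 (8.88% over all assays), and 0 passed in limma. Both arms of miR-31 and the neighbours miR-182-5p and miR-183-5p are among the 5, so these are not 5 separate results. miR-31-3p ranged from -5.19 to -2.05 in tumor mice and from -3.48 to -1.96 in tumor-free mice, and differed by -1.63 (SE 0.46, adjusted p = 0.0843). Its partner miR-31-5p differed by -1.43 (SE 0.43, adjusted p = 0.115). Tumor replicate 1 had the highest level of both arms among tumor mice. Without the samples of 1 decimal ending, the differences were -2.23 (3p) and -1.90 (5p). Within those samples, where replicate 1 is the only tumor mouse, they were 0.89 and -0.04. miR-182-5p and miR-183-5p, encoded together and abundant in sensory and other epithelia, differed by -1.78 and -1.04, and miR-203-3p of skin by -0.91 (adjusted p = 0.179, 0.269 and 0.179). The miR-200 family, which maintains epithelial identity, ranged from -0.94 (miR-200b-3p) to -0.34 (miR-141-3p and miR-200a-3p) among its 3p arms.

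**Figure D3:**
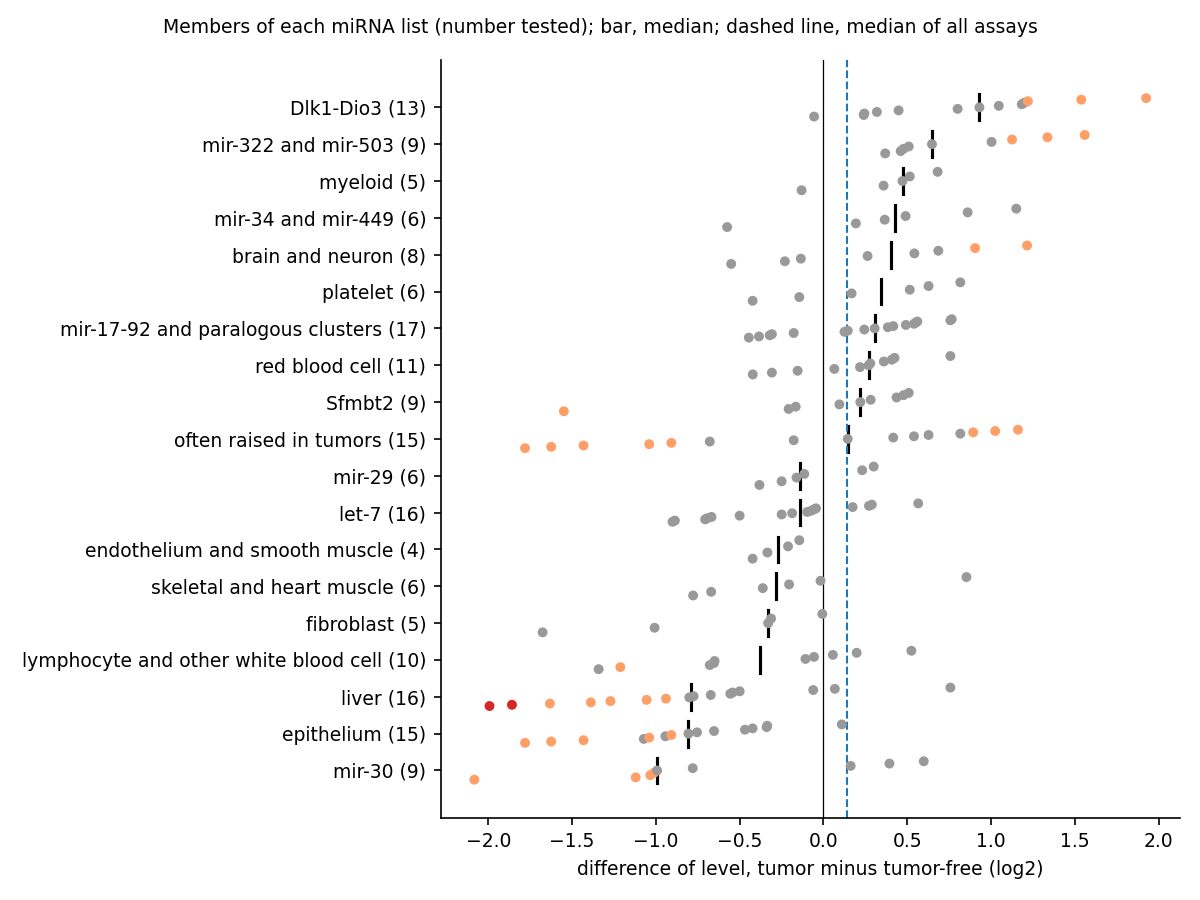
Difference between tumor and tumor-free mice (log2) of every tested member of 19 miRNA lists, 1 point per assay, with red and orange as adjusted and unadjusted p under 0.05. Black bars give list medians and the dashed line the median of all 338 assays (0.14). The mir-30, epithelium and liver lists have the lowest medians (-0.99, -0.81 and -0.79), and the Dlk1-Dio3 and mir-322 lists the highest (0.93 and 0.65).

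The mir-322 and Dlk1-Dio3 lists, of miRNA genes encoded together, had medians on the other side of 0. All 9 tested members of the X-linked mir-322 and mir-503 list were above 0 (188 of 338 over all assays), with a median of 0.65. In limma 3 were higher at an unadjusted p under 0.05 (7.99% over all assays) and 0 passed. The list holds mouse-named assays only. The rat-named assay of miR-351-5p differed by -0.10, and those of miR-322-3p and miR-450a-5p by 1.18 and 0.49. miR-322-5p, the mouse counterpart of human miR-424, ranged from 1.39 to 3.52 in tumor mice and from 0.24 to 1.67 in tumor-free mice, and differed by 1.34 (SE 0.36, adjusted p = 0.0649). The wild-type mice, at 2.09, 1.63 and 2.32, lay above, inside and above the tumor-free range. miR-503-3p differed by 1.56 and miR-450b-5p by 1.13 (adjusted p = 0.117 and 0.135). Without the samples of 1 decimal ending, miR-503-3p differed by 1.01 and miR-450b-5p by 1.24. Over all mice, miR-450b-5p differed by 0.58 in raw Ct and 0.65 with reference miRNAs. miR-16-5p, which carries the same seed as miR-322-5p, differed by 0.42 (adjusted p = 0.709).

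Of the 13 tested members of the imprinted Dlk1-Dio3 cluster on chromosome 12, which is active in embryo and brain, 12 were above 0, with a median of 0.93, beside the same 188 of 338. In limma 3 were higher at an unadjusted p under 0.05, beside 7.99% over all assays, and 0 passed. They were miR-134-5p (1.93), miR-495-3p (1.54) and miR-376c-3p (1.22), with adjusted p of 0.179, 0.127 and 0.135. Members averaged late Ct values in transgenic mice, from 32.0 (miR-434-3p) to 35.1 (miR-495-3p). Of 7 tumor-free mice, miR-495-3p was detected in 6 and miR-134-5p in 5. The medians of the liver, epithelium, mir-30, mir-322 and Dlk1-Dio3 lists kept their sign under all 7 scalings. That of the mir-322 list was 0.29 in raw Ct and with reference miRNAs, and that of the Dlk1-Dio3 list 0.53 and 0.57. The medians of the Sfmbt2, often raised in tumors, platelet, red blood cell and mir-17-92 lists were above 0 relative to the panel (0.22, 0.14, 0.34, 0.27 and 0.30) and below 0 in raw Ct (-0.26, -0.22, -0.02, -0.09 and -0.06).

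miRNAs often raised in tumors did not share a direction. Of 15 tested, 7 lay below and 8 above 0, and the median turned negative in raw Ct and with reference miRNAs. miR-21a-5p, the most widely raised miRNA in tumors, was at 7.42 ± 0.43 (n = 7) with tumors and 6.53 ± 0.41 (n = 7) without, and differed by 0.89 (adjusted p = 0.135). That difference was 0.53 in raw Ct and with reference miRNAs and 0.16 after quantile normalization. miR-210-3p, a target of hypoxia signaling, differed by 1.02 (adjusted p = 0.161; 0.66 in raw Ct and with reference miRNAs) and miR-10b-5p by 1.16 (adjusted p = 0.135). The lowest differences were those of the epithelial miR-182-5p and both arms of miR-31, which are also on the epithelium list.

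The arms of 1 hairpin allow a comparison within each mouse, since their difference does not change with a shared scaling. Of 64 hairpins with both arms tested, 44 had both arms on the same side of 0, 19 lower and 25 higher. In 4 hairpins (miR-192, miR-31, miR-33 and miR-455) both arms had an unadjusted p under 0.05, and both lay lower. For miR-339 the 5p arm differed by -0.16 (SE 0.40, 95% interval -0.996 to 0.679) beside 1.15 for the 3p arm. In the mir-30 family, whose 5p arms are the main products, miR-30a-3p, miR-30d-3p and miR-30e-3p differed by -1.01, -1.12 and -1.03 (adjusted p = 0.179, 0.142 and 0.123). Their 5p arms differed by 0.60, 0.16 and 0.39, and that of miR-30d turned to -0.20 in raw Ct and with reference miRNAs. miR-30c-2-3p, of another seed, differed by -2.08 (adjusted p = 0.12). Not all 5p arms of the family lay above 0. Those of miR-30b and miR-30c differed by -0.78 and -0.99 (adjusted p = 0.429 and 0.423).

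The level of the 3p arm minus that of the 5p arm was then tested per hairpin, a measure added after the levels had been seen. None of the 64 passed in limma (10 at an unadjusted p under 0.05), and 0 passed by exact permutation (9 unadjusted). The 5 smallest limma p-values all gave an adjusted p of 0.0737. They belonged to miR-455 (-1.67, SE 0.51), miR-30d (-1.35, SE 0.43), miR-30a (-1.61, SE 0.52), miR-339 (1.31, SE 0.42) and miR-30e (-1.43, SE 0.47). In miR-455 and the 3 mir-30 hairpins, the 3p and 5p assays lie in different sets of decimal endings, taken as plates. With each set scaled by its own mean, their differences were -1.44, -1.15, -1.39 and -1.21. Both miR-339 arms lie in 1 set.

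**Figure D4:**
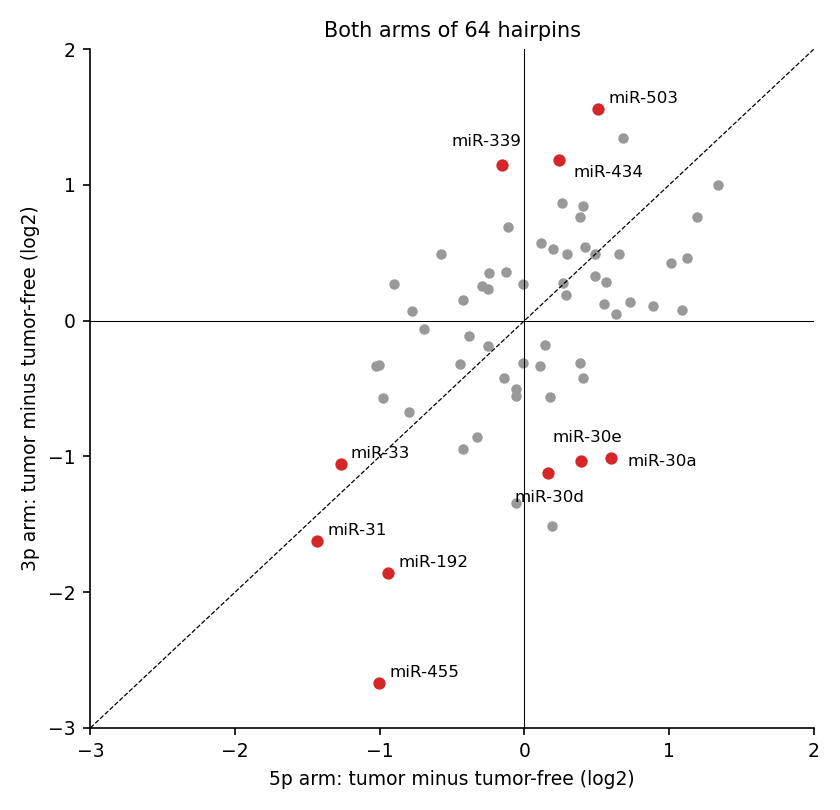
Difference between tumor and tumor-free mice (log2) of the 5p arm (horizontal) and the 3p arm (vertical) of 64 hairpins, 1 point per hairpin, with the dashed line marking equal differences. Named hairpins are in red. miR-30a, miR-30d and miR-30e lie right of 0 and near -1 on the vertical axis, and miR-455 lies farthest below the line of equal differences among the named hairpins.

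Tumor mice also differed more among themselves, a comparison added after the levels had been seen. The SD among tumor mice exceeded that among tumor-free mice in 294 of 338 assays, with medians of 1.01 and 0.64. For each mouse, the mean distance of its levels from the mean of the others of its group was 0.77 to 1.20 in tumor mice (median 0.91) and 0.46 to 0.74 in tumor-free mice (median 0.59). Every tumor mouse lay above every tumor-free mouse. The difference was 0.40 (exact two-sided permutation p = 0.000583, the smallest that 7 against 7 can give). Distances within a group share its mean and so are not independent of each other. In raw Ct the difference was 0.48 with an exact p of 0.119. The hemolysis index also varied more among tumor mice (SD 1.97 against 0.84 cycles), and with it taken out the difference was 0.24 (exact p = 0.0186).

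**Figure D5:**
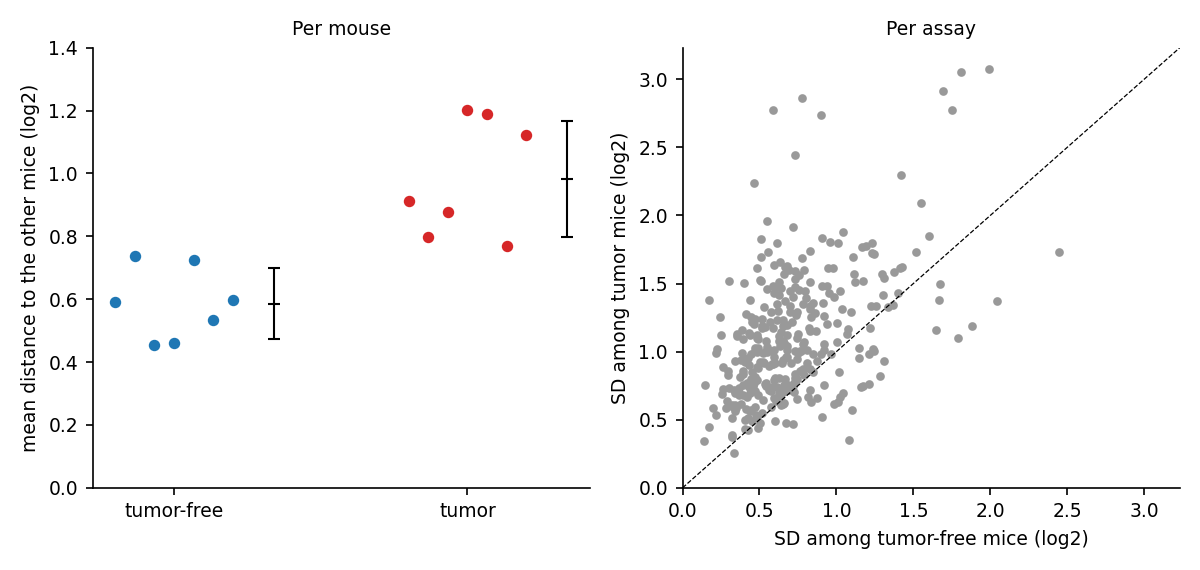
Left, mean distance of each mouse to the mean of the other mice of its group (log2), 1 point per mouse, with mean and SD as bars (n = 7 each). Right, SD of each of 338 assays among tumor-free (horizontal) and tumor mice (vertical), with the dashed line marking equal SD. The tumor mice lie at 0.77 or above and the tumor-free mice at 0.74 or below, and 294 assays lie above the line.

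Detection and control assays showed no difference that passed. Of 100 assays detected in some but not all transgenic mice, 65 were detected in more tumor-free than tumor mice and 23 in more tumor mice. Fisher's exact test gave 0 at an unadjusted or adjusted p under 0.05. Most of these assays were missing in too few mice for this test to reach that p, however the mice divided. miR-1957a, detected in 7 tumor-free and 4 tumor mice, had a Fisher p of 0.192. The test therefore cannot decide whether detection differed for most of them. Of 8 control assays, 0 passed the exact permutation test of raw Ct (0 at an unadjusted p under 0.05). The small nuclear RNAs RNU1A1 and RNU5G read later in tumor mice by 2.53 and 2.59 cycles (exact p = 0.0816 and 0.0524, adjusted p = 0.163 and 0.154). Relative to the panel mean, these differences were 2.17 and 2.23 cycles (exact p = 0.042 and 0.00932, adjusted p = 0.168 and 0.0746). In raw Ct the spike-ins UniSp2, UniSp4 and UniSp5 also read later in tumor mice, by 0.39, 0.40 and 0.615 cycles (exact p = 0.0536, 0.0577 and 0.147). The spike-ins UniSp6 and cel-miR-39-3p differed by -0.11 and -0.12 cycles (exact p = 0.193 and 0.733).

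Some animals share a number in their labels whose meaning is not stated. Number 77 holds 2 tumor mice and 1 tumor-free mouse, and number 85 holds 1 and 2. Within them, the differences were -1.02 and -2.93 for miR-802-5p, -2.23 and -0.41 for miR-192-3p, -2.25 and -3.43 for miR-455-3p, and 1.395 and 0.81 for miR-339-3p. All had the sign found over all mice, but these mice are among those in which the assays were called, so this is no separate check. Number 85 also holds tumor-free replicate 4 and tumor replicate 4, which the labels do not state to be different animals.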

How the data were processed

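Serum RNA was measured by SYBR Green real-time PCR run for 40 cycles on ready-made panels, from 50 µL of serum, per the labels' protocols. The deposited table gives Ct values, another unit than a count or log ratio, which the authors left without normalization; threshold setting and plate calibration are not given in the sources used here. An empty cell was taken as not detected. Levels are log2 values computed here: the mean Ct of the 252 assays detected in all 17 mice minus the assay's own Ct. Assays detected in at least 2 wild-type, 5 tumor-free and 5 tumor mice were tested, which set aside 19 of 357. A single limma fit (version 3.58.1, R 4.3.3) held all 3 groups; its two-sided p-values were adjusted by Benjamini-Hochberg over 338 assays, with a threshold of 0.05, and the script was tested on simulated data. Sample measures and controls had exact permutation tests, and detection Fisher's exact test (Python 3.11.15, scipy 1.17.1). Each sample was analysed as a separate mouse. Apart from the group name, the labels of tumor-free replicate 4 and tumor replicate 4 differ only by an added letter b. The labels do not state whether these samples come from different animals.

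The comparison and the miRNA lists were chosen with earlier results of these data known. Assays were named from a rule covering all that passed, the 30 of smallest p, other arms, rat-named assays and seed partners of those that passed, the most abundant member of each list, the 10 most abundant miRNAs, 5 blood and tissue markers, the assays with the smallest detection p, and list members at an unadjusted p under 0.05; not every assay it covers is printed. miR-148a-3p, miR-101a-3p, miR-193b-3p, miR-200a-3p, miR-200b-3p, miR-141-3p, miR-30a-5p, miR-30b-5p, miR-30c-5p, miR-30d-5p, miR-215-5p and miR-501-3p were named after their values were seen. Alternatives covered scaling, missing values, detection limits, the variance model, covariates, a block and leaving out mice.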

Additional observations from a re-analysis of the deposited data

Results flagged for a closer look

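In 10 groups of 7 mice (6.85% of those examined), the highest or lowest value stood apart from the other 6 by more than Dixon's 95% limit, and chance alone flags about 1 in 20. For miR-30c-2-3p, tumor-free replicate 5 was at -1.115, with the others between -5.077 and -3.728. For the rat-named miR-215 assay, tumor-free replicate 6 was at 2.669 (others 3.495 to 4.037). Tumor-free replicate 1 stood high for miR-30e-3p at 0.572 (others -0.973 to -0.49) and for miR-30d-3p at -1.944 (others -3.501 to -2.841). Tumor-free replicate 4 was low for miR-376c-3p at -5.512 (others -4.575 to -3.881) and high for miR-183-5p at -2.424 (others -4.608 to -3.714). For miR-34a-5p, tumor-free replicate 5 was low at -1.106 (others 0.075 to 0.723). Among control assays, tumor replicate 5 had a U6 snRNA Ct of 25.469 (others 30.927 to 34.734). Tumor-free replicate 2 read late for the spike-ins UniSp2, at a Ct of 21.144 (others 20.117 to 20.549), and UniSp4, at 27.356 (others 26.229 to 26.605).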

How the results depend on the processing

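Against 5 assays that passed in limma, 0 passed in raw Ct, when scaled by spike-ins or by reference miRNAs, without the 4 samples of 1 decimal ending, or by exact permutation per assay (17, 14, 46, 30 and 57 at an unadjusted p under 0.05). The count was 8 with transgenic mice only and 13 with the hemolysis index as covariate, and 2 to 10 with 1 mouse left out: leaving out a tumor mouse gave 10 (replicate 5), 8 (replicate 7) and 2 (replicates 3 and 4), and leaving out a tumor-free mouse gave 9 (replicate 2), 3 (replicate 3) and 2 (replicates 1 and 6). The cause was not tested. Reference miRNAs and raw Ct moved the median difference of all assays from 0.14 to -0.22 and -0.24. With the number in the animals' labels as a random block, 6 passed, and with the kind of decimal ending as a term, 5 passed. No paired analysis was possible because the labels give no replicate number that pairs the groups. The difference in distance to the own group was 0.478 in raw Ct (exact permutation p = 0.119), and this measure and the arm balance were added once the levels were known. For the arm balance, 0 to 5 hairpins passed with 1 mouse left out, 1 without tumor replicate 2 and 5 without tumor replicate 7.

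Of 62 single assays followed, 13 changed sign under some alternative, none of them past the threshold. In the order reference miRNAs and raw Ct, the differences became -0.296 and -0.296 for miR-451a, -0.13 and -0.13 for miR-29a-3p, -0.167 and -0.167 for miR-34a-5p, -0.141 and -0.14 for miR-297a-5p, and -0.000679 and -0.000176 for miR-144-3p. miR-451a was at -0.061 with spike-ins and -0.000416 with a mean per plate. Quantile normalization gave -0.0052 for miR-24-3p, -0.332 for miR-23a-3p, 0.0822 for miR-133b-3p, -0.086 for miR-93-5p, -0.0254 for miR-16-5p and -0.161 for miR-144-3p. The median as scaling gave 0.103 for miR-133b-3p. Without the samples of 1 ending, miR-150-5p was at 0.181 and miR-34a-5p at -0.00093. With 1 mouse left out, miR-451a ranged from -0.271 to 0.325, miR-133b-3p from -0.799 to 0.366, miR-199a-3p from -0.686 to 0.117, miR-297a-5p from -0.158 to 0.588, miR-339-5p from -0.336 to 0.0358 and miR-34a-5p from -0.0314 to 0.413. The number of mice and late Ct values limit what can be detected: 81 of the tested assays had a missing value in at least 1 transgenic mouse.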

Other observations

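Of the groups of neighbouring hairpins, the 7 tested assays of the mir-322 cluster (chrX:53047997-53054349, GRCm38.p6) all lay above 0, with a median of 1.00, and the 8 assays of the mir-362 cluster, also on the X chromosome, lay above 0 in 7, with a median of 0.40 and miR-501-3p at 0.85 (adjusted p = 0.179). Other groups of neighbouring hairpins lay below 0. Among them were all 3 tested assays of the mir-183 cluster (median -1.04) and all 4 of the mir-200b cluster (median -0.54). The 10 tested assays with the let-7 seed lay below 0 in 9, with a median of -0.58 and 0 at an unadjusted p under 0.05 in limma. Muscle miRNAs varied most, with a median SD of 2.84 among tumor mice and 1.72 among tumor-free mice. miR-215-5p and the rat-named miR-215 assay, the former named after its values were seen, differed by -2.26 and -2.30 (adjusted p = 0.179 and 0.123). Tumor replicate 5 was at -6.50 and -3.27 in them, against -1.90 to 1.57 and 0.34 to 3.12 in the other tumor mice, and without it the differences were -1.31 and -1.53.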
